A study of Mus musculus with 6 samples.

Results

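The Ets family factors described here are 10 genes, Ets1, Ets2, Fli1, Elf1, Elf2, Elf4, Elk3, Elk4, Gabpa and Etv6, taken by symbol from the 48397 genes of the count table. All 10 were found and all 10 passed the filter on low counts, as did 12312 genes in total. RNA was sequenced from invariant natural killer T (iNKT) cells of the thymus at stage 0, just after positive selection. There were 3 libraries from wild-type BALB/c mice and 3 from SKG mice, which carry a hypomorphic mutation of the kinase Zap70 on the BALB/c background and therefore signal weakly through the T cell antigen receptor (TCR). Each library came from about 1000 cells, sorted as PBS57-CD1d tetramer+, CD44-, CD24+, CD69+, CD4 low or negative and CD8-. Thymi of 3 mice, 8 to 10 weeks old, were pooled for each library, and replicates are thus separate pools. The mutation changes the protein and cannot be seen in counts per gene.

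Ets factors share a DNA-binding domain that recognises a short motif with the core GGAA. In thymocytes, Ets1 acts with Runx factors at the enhancers of the TCR genes and is required for normal development of natural killer T cells. Outside the thymus, Elf4 restrains proliferation of T cells. Gabpa forms a heterotetramer with Gabpb subunits and drives nuclear genes for mitochondrial proteins. Elk3 and Elk4 are ternary complex factors, which bind beside serum response factor at immediate early genes such as Egr1 and are activated by MAP kinases. Etv6 is a repressor, Fli1 is best known from megakaryocytes and blood progenitors, and Elf1 and Elf2 are widely expressed.

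Promoter sequences are shown for Elf4 and Elk3, whose libraries did not overlap between the genotypes, and for Elk4, whose promoter held the longest match to the Ets motif. RefSeq promoters on GRCm38.p6 were matched for 8 of the 10 genes, without Ets1 and Fli1, and gave 13 windows of 250 bases before a start. The motif CCGGAAGT, on either strand, was in 1 of these 13 windows and in 2.88% of all 32851 windows. The core GGAA, which that motif contains, was in 12 of the 13 and in 93.4% of all. A motif for Egr factors, GTGGGCG, was in 2 of the 13, both downstream starts of Elk4, and in 7.02% of all. The runs below read 5′ to 3′ towards the start and stop before the first annotated base of the gene, with GGAA and CCGGAAGT on either strand in capitals. A match is a description of the letters and not a binding site.
Elf4 (chrX:48463133-48463382, minus strand): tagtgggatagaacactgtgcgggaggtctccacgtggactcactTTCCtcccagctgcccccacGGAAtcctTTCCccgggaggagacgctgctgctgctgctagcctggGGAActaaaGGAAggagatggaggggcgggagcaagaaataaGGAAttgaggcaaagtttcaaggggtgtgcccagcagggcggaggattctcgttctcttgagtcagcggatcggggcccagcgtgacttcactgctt
Elk3 (chr10:93311160-93311409, minus strand): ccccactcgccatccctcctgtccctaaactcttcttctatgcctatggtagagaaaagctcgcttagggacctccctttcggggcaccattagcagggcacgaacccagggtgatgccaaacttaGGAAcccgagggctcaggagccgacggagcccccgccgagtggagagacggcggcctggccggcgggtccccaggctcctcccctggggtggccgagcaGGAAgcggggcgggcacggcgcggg
Elk4 (chr1:132007370-132007606, plus strand): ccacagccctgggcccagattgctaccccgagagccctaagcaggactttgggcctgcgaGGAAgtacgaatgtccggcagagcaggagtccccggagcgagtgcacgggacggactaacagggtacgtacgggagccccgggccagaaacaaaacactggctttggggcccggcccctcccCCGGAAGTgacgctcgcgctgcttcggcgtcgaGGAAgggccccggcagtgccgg

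The reads counted on genes ranged from 37176544 to 43115544 per library, and 10835 to 14791 genes reached 10 reads. Values are given as CPM, read counts scaled to a fixed total by the TMM-normalized library size, where 1 read was worth between 0.0221 and 0.0277. Markers of T cells and stage 0 summed to 7840 to 9648 CPM in BALB/c and 7987 to 9363 in SKG. Of these 9 genes, Cd69 and Egr2 were lower and Slamf6 was higher in SKG without overlap, with log2 fold changes of -0.87, -0.80 and 0.34. Markers of myeloid and dendritic cells stood apart in BALB/c replicate 1 (64.8 CPM) and SKG replicate 3 (135), against 5.42 to 15.3 in the other 4 libraries. Of this list of 7 genes, only Lyz2 and Cd68 were tested, and in these 2 libraries they made up the sum but for 1 read. Csf1r, Itgam, Itgax, Flt3 and Zbtb46 had at most 1 read in either of them, and up to 249 (Zbtb46, SKG replicate 2) in the others. BALB/c replicate 1 was also the highest for markers of double-positive thymocytes, at 394 CPM against 38.2 to 151 elsewhere, and for erythroid markers, at 69.7 CPM against at most 1.57. Summed markers of B cells reached at most 8.38 CPM. Those of endothelial cells summed to 94.1 to 167 CPM in BALB/c and 143 to 157 in SKG. This was nearly all Pecam1, and Cdh5 had 0 reads in every library. Markers of thymic epithelial cells summed to 28.15 to 40.3 CPM in BALB/c and 10.0 to 86.9 in SKG, highest in SKG replicate 3. In that library the sum was all Epcam, with Foxn1, Psmb11, Krt5 and Krt8 at 0 reads.

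In stage 0 cells, Ets1 and Elf4 mRNA was higher in every SKG library than in any BALB/c library, and Elk3 was higher in every BALB/c library. The other 7 genes overlapped between the genotypes. In the edgeR quasi-likelihood fit, genes with an FDR (Benjamini-Hochberg) below 0.1 that also differed at least 1.5-fold were called. Of the Ets factors 0 were called, as were 0 of the 12312 genes tested (0%). Over all genes DESeq2 called 370 without shrinkage of the fold change and limma-voom called 0, and both called 0 of the 10. At an unadjusted p under 0.05 there were 2 of the 10, Ets1 and Elf4, against 671 or 5.45% of all genes tested. The libraries did not overlap for 2 of the 10 in the direction of SKG, against 6.77% of all genes, and for 1 in the direction of BALB/c, against 7.12%, or 3 of 10 against 13.9% in either direction. The median log2 fold change of the 10 genes, SKG over BALB/c, was 0.44, with 8 above 0 and 2 below, and that of all genes tested was -0.02. With BALB/c replicate 1 and SKG replicate 3 both left out, a choice made after the marker values were seen, 4 of the 10 had an unadjusted p under 0.05, namely Ets1, Elf4, Elk3 and Etv6, and 0 were called. In that fit 824 genes in all had such a p, against 671 with all libraries, and their share of the genes tested there is not given here. The log2 fold change of Etv6 was -2.04, against 0.18 with all libraries. SKG replicate 3, left out there, was the highest library of Etv6, at 51.7 CPM.

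**Figure D1:**
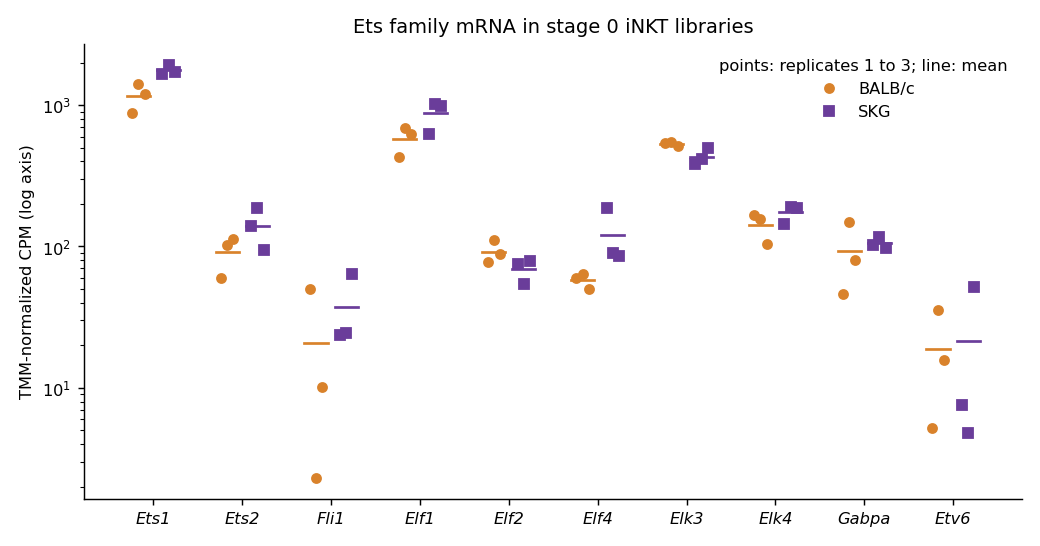
TMM-normalized CPM on a log axis of the 10 Ets family genes in each library, with BALB/c as circles, SKG as squares and the mean of 3 libraries as a line. Ets1 and Elf4 lie higher in all SKG libraries, Elk3 lies lower, and Fli1 and Etv6 spread over more than 10-fold within a genotype.

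Ets1 was the most abundant member. It lies on chromosome 9 of GRCm38 from 32636221 to 32757820, on the plus strand, and shares no exon base with another gene. In BALB/c the libraries held 876, 1411 and 1200 CPM, and in SKG 1665, 1934 and 1722. The lowest SKG library was thus above the highest BALB/c library, and BALB/c replicate 1 was the lowest of all. The BALB/c mean was 1162 ± 269.5 CPM (SD, n = 3 libraries) and the SKG mean 1774 ± 142 CPM (SD, n = 3). The log2 fold change was 0.61, or 1.53-fold, with a 95% interval from 0.15 to 1.07 (adjusted p = 0.830 from edgeR). With 1 library left out, the log2 fold change of Ets1 lay between 0.45 (without BALB/c replicate 1) and 0.76 (without BALB/c replicate 2), and the unadjusted p was under 0.05 in 5 of 6 such fits, the exception being the fit without SKG replicate 2.

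Ets2, the closest relative of Ets1 and likewise phosphorylated by MAP kinases, is on chromosome 16 from 95702075 to 95721051. It was at 59.9, 102 and 112 CPM in BALB/c and 139.5, 186 and 95.2 in SKG. SKG replicate 3 lay within the BALB/c range, so the genotypes overlapped. The log2 fold change was 0.61 with an interval from -0.21 to 1.44 (adjusted p = 0.971 from edgeR).

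Among the Elf factors, Elf4 had the largest log2 fold change of the 10 genes with all libraries in edgeR. That of Fli1 was larger with limma-voom, with either block and without BALB/c replicate 1 or SKG replicate 1. It was also larger without BALB/c replicate 1 and SKG replicate 3 together. Without SKG replicate 1, those of Elf1, Ets1 and Ets2 (0.79, 0.65 and 0.62) also exceeded that of Elf4 (0.60). The same 3 genes exceeded Elf4 with the block by library number. Elf4 lies on chromosome X from 48411046 to 48463132 on the minus strand, and its promoter is printed above. Its levels were 60.3, 63.7 and 49.8 CPM in BALB/c and 186, 90.5 and 85.5 in SKG, with means of 57.9 ± 7.20 (SD, n = 3 libraries) and 121 ± 56.7 (SD, n = 3). All SKG libraries were above all BALB/c libraries, but replicate 1 stood far above the other two. The fold change was 2.08 (log2 1.06, interval from 0.21 to 1.91, adjusted p = 0.834 from edgeR). Without SKG replicate 1 the log2 fold change of Elf4 was 0.60, with an unadjusted p of 0.0770 from edgeR.

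Elf1, on chromosome 14 from 79481194 to 79582494, was the next most abundant after Ets1. Its levels were 429, 689 and 620 CPM in BALB/c and 622, 1015 and 992 in SKG, and SKG replicate 1 lay between BALB/c replicates 3 and 2. The log2 fold change of Elf1 was 0.60, close in size to that of Ets1, with an interval from -0.02 to 1.22 (adjusted p = 0.944 from edgeR). Elf2 was 1 of the 2 genes with a lower mean in SKG. It lies on chromosome 3 from 51252720 to 51340663 and held 77.3, 111 and 87.8 CPM in BALB/c and 75.8, 54.5 and 78.6 in SKG, where SKG replicate 2 was the lowest and the other two SKG libraries lay close to BALB/c replicate 1. Elf2 had a log2 fold change of -0.40 with an interval from -1.03 to 0.22 (adjusted p = 0.982 from edgeR).

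**Figure D2:**
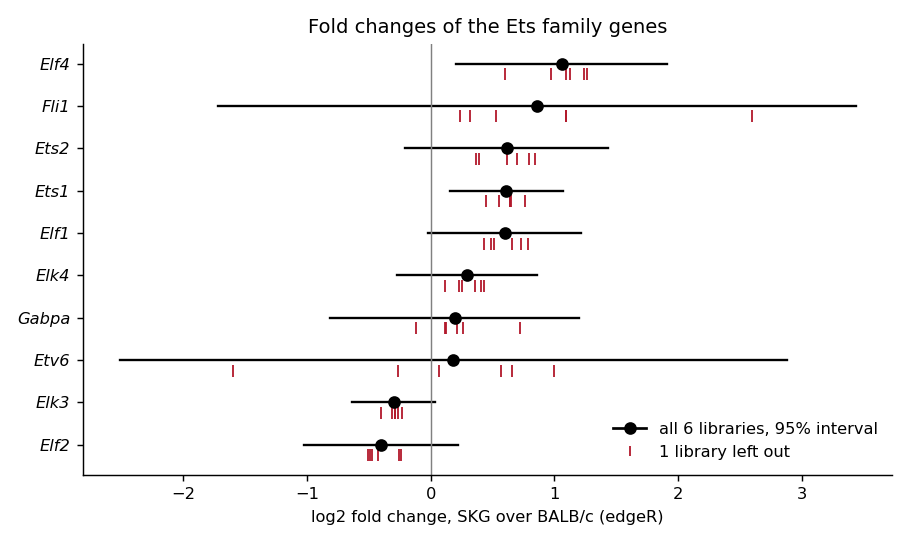
Log2 fold changes of the 10 Ets family genes, SKG over BALB/c, with 95% intervals from edgeR (black) and the values with 1 library left out (red ticks). The intervals of Ets1 and Elf4 lie above 0 without adjustment for multiple tests, those of the other 8 include 0, and the ticks of Etv6 and Gabpa fall on both sides of 0.

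Of the ternary complex factors, Elk3 was the steadiest gene of the 10. It is on chromosome 10 from 93247414 to 93311135 on the minus strand, and 6.95% of its exon bases are shared with Cdk17 on the other strand, whose reads unstranded counting cannot separate. The BALB/c libraries held 536, 546 and 518 CPM and the SKG libraries 386, 415 and 498. Every SKG library was below every BALB/c library, although SKG replicate 3 came close to BALB/c replicate 3. The BALB/c mean was 533 ± 14.4 CPM (SD, n = 3 libraries) and the SKG mean 433 ± 58.3 CPM (SD, n = 3). The log2 fold change of Elk3 was -0.30 with an interval from -0.64 to 0.04 (adjusted p = 0.952 from edgeR). This is a fold change of 1.23 in the direction of BALB/c, under the threshold of 1.5. Elk4, on chromosome 1 from 132007607 to 132032612, was at 167, 155 and 104 CPM in BALB/c and 145, 191 and 187 in SKG. These libraries overlapped (log2 fold change 0.29, interval from -0.27 to 0.86, adjusted p = 0.991 from edgeR).

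Gabpa lies on chromosome 16 from 84834925 to 84863779 and shares 6.98% of its exon bases with Atp5j on the other strand. It held 46.2, 149.5 and 80.9 CPM in BALB/c and 102, 116 and 97.4 in SKG, so that the SKG libraries lay inside the range of BALB/c. Gabpa had a log2 fold change of 0.19 with an interval from -0.81 to 1.20 (adjusted p = 0.991 from edgeR), and it became -0.12 without BALB/c replicate 1.

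Fli1 and Etv6 had the lowest mean CPM of the 10 genes and the largest spread within genotypes. Fli1 lies on chromosome 9 from 32422204 to 32542861 on the minus strand, with a gap of 93.4 kb to Ets1. It had 2052, 85 and 457 reads in BALB/c against 955, 954 and 2324 in SKG, or 49.8, 2.29 and 10.1 CPM and 23.7, 24.5 and 64.3 CPM. BALB/c replicate 1 and SKG replicate 3 were therefore the highest libraries of their genotypes, and the neighbouring Ets1 was lowest in BALB/c replicate 1. These 2 libraries were also those with the highest sums of myeloid and dendritic markers, 64.8 and 135 CPM. Those sums were Lyz2 and Cd68, with the other 5 markers at 0 or 1 read. The same 2 libraries had the highest sums of double-positive thymocyte markers, 394 and 151 CPM, against 38.2 to 115 elsewhere. Their sums of B-cell markers were also the highest, 6.84 and 8.38 CPM, against at most 3.11. The part of any of these cells in the level of Fli1 was not tested. In bulk RNA, a different number of cells and a different amount of RNA per cell cannot be told apart. The log2 fold change of Fli1 was 0.86 with an interval from -1.72 to 3.44 (adjusted p = 0.991 from edgeR), and it ranged from 0.24 without SKG replicate 3 to 2.60 without BALB/c replicate 1. Without both libraries it was 1.97, with an unadjusted p of 0.0953 from edgeR.

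Etv6 is on chromosome 6 from 134035700 to 134270158. It had 216, 1314 and 714 reads in BALB/c against 306, 185 and 1870 in SKG, or 5.24, 35.4 and 15.8 CPM and 7.60, 4.76 and 51.7 CPM. It was highest in SKG replicate 3, as Fli1 was, but low in BALB/c replicate 1. Its log2 fold change of 0.18 had an interval from -2.52 to 2.88 (adjusted p = 0.999 from edgeR) and became -1.60 without SKG replicate 3, so that its direction depended on which libraries were included. The highest BALB/c library of Fli1 was more than 10 times the lowest, which held for 3.56% of the 7107 genes with a mean of at least 20 CPM. In SKG the same was true of Etv6, against 3.69% of those genes. By mean CPM, Fli1 (29.1) and Etv6 (20.1) lay at the low end of those 7107 genes. Among genes at a mean CPM within 2-fold of its own, 82.4% had a smaller SD of log2 CPM within genotypes than Fli1. For Etv6 this share was 71.0%.

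**Figure D3:**
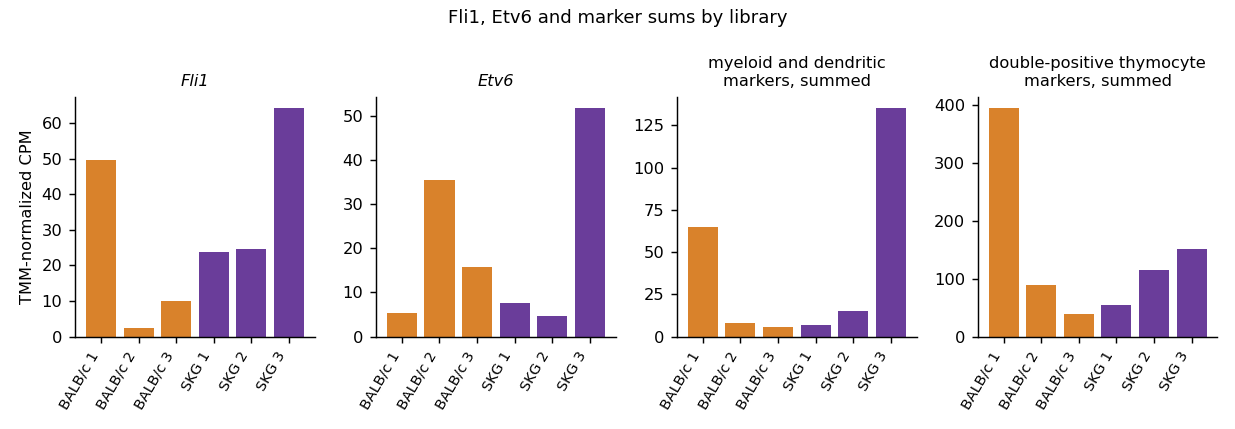
TMM-normalized CPM in each library of Fli1, Etv6 and the summed markers of myeloid and dendritic cells and of double-positive thymocytes, with BALB/c in orange and SKG in purple. Fli1, the myeloid sum and the double-positive sum are highest in BALB/c replicate 1 and SKG replicate 3, whereas Etv6 is low in BALB/c replicate 1.

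To compare levels between genes, CPM were divided by the length of the merged exons of each gene in kb. By the mean over the 6 libraries, the order of the 10 was Ets1 (173 CPM per kb), Elf1 (108), Elk3 (106), Elk4 (24.7), Ets2 (20.04), Gabpa (17.4), Elf4 (14.5), Elf2 (8.45), Fli1 (8.35) and Etv6 (3.36). Among neighbours in this order, Elk3 and Elk4 did not overlap over the 6 libraries, from 84.9 to 120 and from 16.2 to 29.8 CPM per kb, whereas every other pair of neighbours did. Ets1, Elf1 and Elk3 together took between 77.1% and 82.7% of the summed level per kb of the 10 genes in each library. Per kb, Elk3 was above Elf1 in all 3 BALB/c libraries and below it in all 3 SKG libraries, with means of 117 and 86.0 CPM per kb in BALB/c and 95.2 and 130 in SKG. By the means per kb, Elf2 and Fli1 also changed places, at 9.62 and 5.94 in BALB/c and 7.28 and 10.8 in SKG, with Fli1 varying widely. Both changes of place depended on the division by length. In plain CPM, Elf1 was above Elk3 in BALB/c replicates 2 and 3 (689 and 620 against 546 and 518), and below it in replicate 1. The plain CPM mean of Elf2 was above that of Fli1 in BALB/c (92.0 against 20.7) and in SKG (69.6 against 37.5). Ets1 over Elk3 per kb was 0.877, 1.39 and 1.24 in BALB/c and 2.32, 2.50 and 1.86 in SKG, a ratio chosen after the levels were seen and given without a test. Summed over the 10 genes, the CPM ranged from 2307 to 3265 in BALB/c and from 3353 to 4031 in SKG. Without Ets1 the sums overlapped, from 1431 to 1854 in BALB/c and from 1688 to 2149 in SKG.

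**Figure D4:**
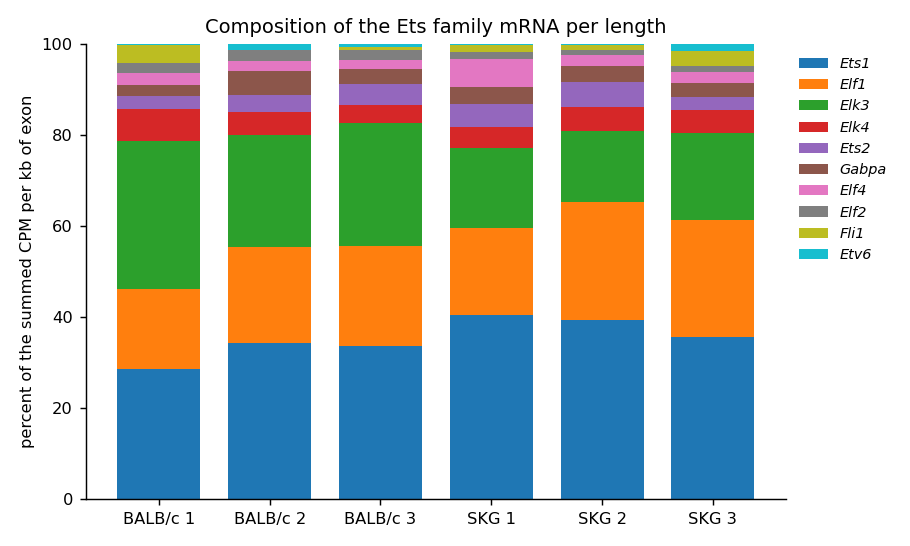
Percent of the summed CPM per kb of exon held by each of the 10 Ets family genes in each library, as stacked bars that add to 100. Ets1 holds between 28.5% and 40.5%, and Elk3 holds between 24.7% and 32.5% in BALB/c and between 15.7% and 19.2% in SKG.

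Pearson correlations of log2 CPM between pairs of the 10 genes ranged from -0.88 (Elf4 with Elk3) to 0.89 (Ets1 with Elf1), over 6 libraries that share the contrast of genotype. The 6 pairs among Ets1, Ets2, Elf1 and Gabpa lay between 0.67 and 0.89, and Elk3 was at -0.67 with Ets1 and -0.76 with Ets2. Among 7106 other genes with a mean of at least 20 CPM, the 5 most like Ets1 were Pptc7, Med14, Panx1, Eif3a and Otud5, with r from 0.989 to 0.994. With so few libraries and so many genes, such values are a description only.

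The family has 16 other genes in the table, and 10 of them did not pass the filter on low counts. The 6 that passed were Elk1, Erf, Etv1, Etv3, Etv4 and Etv5, and all 6 overlapped between the genotypes, with 0 at an unadjusted p under 0.05. Spic, Etv2 and Spdef had 0 reads in every library, and Erg, a factor of endothelial cells, had at most 1. Etv5 had 3, 519 and 982 reads in BALB/c against 3173, 1640 and 169 in SKG (log2 fold change 1.81, adjusted p = 0.991 from edgeR). Summed per kb, the 16 genes reached 13.7 to 31.0 CPM in BALB/c and 28.4 to 37.9 in SKG, far below the 10 members at 362 to 581.

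Of 15 genes for partners and cofactors of Ets factors, 14 were tested, 1 had an unadjusted p under 0.05 and 0 were called. This was Runx3, a Runt factor, with 0, 0 and 5 reads in BALB/c against 60, 403 and 83 in SKG (adjusted p = 0.830 from edgeR). The paper, which used DESeq2, named Runx3 among its differentially expressed genes. Crebbp, an acetyltransferase that Ets1 recruits, was at 5395, 2884 and 3240 reads in BALB/c against 2064, 2467 and 2276 in SKG without overlap (log2 fold change -0.66, adjusted p = 0.952 from edgeR). The Gabpa partner Gabpb1 and the Elk partner Srf overlapped, with log2 fold changes of 0.35 and 0.30. The median of the 14 was 0.20, against -0.02 over all genes tested. Between the genotypes 2 of the 14 did not overlap, Runx3 and Crebbp, against 13.9% of all genes. An unadjusted p under 0.05 was found for 5.45% of all genes tested.

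The list of kinases and ubiquitin ligase genes that act on Ets factors held 12 tested genes, of which 2 had an unadjusted p under 0.05, both higher in SKG, and 0 were called. Camk4, a calcium-dependent kinase, had 10810, 13429 and 14122 reads in BALB/c against 18649, 23552 and 18376 in SKG (log2 fold change 0.75, adjusted p = 0.645 from edgeR). Mapk9 (Jnk2) had a log2 fold change of 0.59 (adjusted p = 0.871 from edgeR) and Mapk14 (p38α) one of 0.62 (adjusted p = 0.952 from edgeR), with no overlap for either. Of all genes tested, 5.45% had such a p and 6.77% were higher in SKG without overlap. The median of the 12 was 0.50, against -0.02 over all genes.

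Among 18 genes that Ets factors are known to regulate, 2 were higher and 3 lower in SKG at an unadjusted p under 0.05, and 0 were called. Of all genes tested, 5.45% had such a p. For this list and those of partners and kinases, only calls by edgeR are given, which called 0 of all genes tested. The paper, which used DESeq2, named Egr1 and Klf2 among its differentially expressed genes. Of the genes bound by ternary complex factors, Ier2 had 44184, 29638 and 30157 reads in BALB/c against 12825, 11553 and 9615 in SKG (log2 fold change -1.53, adjusted p = 0.380 from edgeR). Egr1 went the same way at -0.92 (adjusted p = 0.447 from edgeR), whereas the survival gene Mcl1 was at 0.44 (adjusted p = 0.894 from edgeR) and Fos overlapped at 0.16. Klf2, a quiescence factor, had 183, 14 and 712 reads in BALB/c against 2659, 3265 and 3857 in SKG (log2 fold change 3.64, adjusted p = 0.830 from edgeR). Tfb1m, a mitochondrial gene that Gabpa regulates, had 1296, 953 and 385 reads in BALB/c against 94, 140 and 300 in SKG, a log2 fold change of -2.21 (adjusted p = 0.894 from edgeR). The other mitochondrial transcription genes on the list, Tfam and Tfb2m, overlapped, at 0.05 and -0.18. Prf1, the perforin gene that Elf4 activates in killer cells, was lower in every SKG library, with 4206, 2400 and 2843 reads against 2315, 630 and 44 (log2 fold change -1.62, adjusted p = 0.988 from edgeR). The TCR genes Trac, Trbc1 and Trbc2, whose enhancers bind Ets1, overlapped and lay between -0.20 and 0.08. The median of the 18 was 0.06, against -0.02 over all genes tested, and 6 of 18 did not overlap, against 13.9% of all genes. The list was chosen with earlier results of these data known, so these shares are a description only.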

How the data were processed

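RNA of 6 libraries, 3 per genotype, was analysed from the table of counts deposited by the authors, whole numbers per gene without normalization or a gene filter. Per the study's methods, reads of 50 nt were aligned with HISAT2 2.1.0 to GRCm38 and counted on exons without regard to strand with featureCounts (Subread 1.4.4), at a mapping quality of at least 10, with Ensembl release 85. How reads on exons of overlapping genes were assigned is not given in the sources used here. The labels and the methods name different amplification kits. A second deposited table holds the authors' own DESeq2 comparison and was not used.

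Counts were analysed in R 4.3.3. The main test was edgeR 4.0.16 (filterByExpr, TMM, quasi-likelihood F test, Benjamini-Hochberg over 12312 genes), with 1 fit of all libraries and no covariates. The 95% intervals use a standard error taken as |log2 fold change| divided by the root of F, with the t quantile of the fit. PCR copies cannot be told from separate molecules. DESeq2 1.42.0 and limma 3.58.1 (voom) were alternatives, besides other normalization factors and filters, blocks and left-out libraries. The fits were tested on simulated data. Correlations used log2 CPM with a prior count of 2. Exon lengths and positions came from GENCODE M21 (GRCm38) by symbol, for all 26 Ets genes.

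The members and gene lists were chosen with earlier results of these data known. Named were all members, other Ets genes that passed the filter, and genes of the other lists with an unadjusted p under 0.05 or without overlap; the further names (Spic, Etv2, Spdef, Erg, Gabpb1, Srf, Fos, Tfam, Tfb2m, the TCR genes, Spib and marker genes) were added after their values were seen. Replicate numbers of the titles were not used to pair the libraries in the main test.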

Additional observations from a re-analysis of the deposited data

How the results depend on the processing

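Of the 10 Ets factors, 0 were called under every alternative run. Over all genes, the count of 0 (671 at an unadjusted p under 0.05) became 370 with DESeq2 without shrinkage (177 higher in SKG, 193 higher in BALB/c), 231 with DESeq2 and shrinkage (118 and 113), 2 when no low-count filter was applied and 1 with a stricter filter, and was 0 with limma-voom, other factors, either block, an FDR of 0.05 and each library left out. The number of Ets factors at an unadjusted p under 0.05 was 2, between 1 and 4 with 1 library left out (1 without BALB/c replicate 3 or SKG replicate 2, 4 without SKG replicate 3) and 4 without BALB/c replicate 1 and SKG replicate 3, an alternative added after seeing the data. Over all genes, 932 had such a p without BALB/c replicate 3, 689 without SKG replicate 2 and 802 without SKG replicate 3. Without both libraries it was 824, against 671 in the main fit. The numbers of genes tested in these fits are not given here. Of 160 fold changes of members under alternatives, 153 kept their direction and stayed uncalled and 7 reversed, all of Etv6 or Gabpa. The size alone moved across 1.5-fold in some, such as Ets1 from 0.61 to 0.45 without BALB/c replicate 1. Etv6 went from 0.18 to -0.24 with limma-voom and to -2.04 without both libraries, and ranged from -1.60 to 1.00 with 1 left out. Gabpa went from 0.19 to -0.065 without both, and ranged from -0.12 to 0.72 with 1 left out. The cause was not tested. Residuals of libraries with the same replicate number correlated between -0.15 and -0.01. Such correlations cannot show whether these libraries were handled together. The replicate block by that number gave -0.066 for Etv6 and changed no call. The block by library number, of which 2 and 3 occur in both genotypes, gave 1 Ets factor at an unadjusted p under 0.05, Elf1 (0.0466), with Ets1 at 0.0982 and Elf4 at 0.263. With that block 443 genes in all had such a p. The common biological coefficient of variation over all genes was 91.8%, which limits what 3 libraries per genotype can resolve. Estimated per gene, it was lower for most of the 10, such as 16.7% for Elk3, 19.5% for Ets1 and 38.6% for Gabpa. It was 89.2% for Fli1 and 95.9% for Etv6.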

Other observations

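Spib, an Ets factor of B cells and plasmacytoid dendritic cells, did not pass the filter and was singled out after its values were seen. It had 673 reads in SKG replicate 3 and between 0 and 3 in the other 5 libraries. In the same library Lyz2, a myeloid gene, had 3873 reads and Cd79b, a B-cell gene, 303, against at most 2215 and 23 elsewhere. Runx2, on the list of partners of Ets factors, had 500 reads there and at most 16 in any other library. Spi1 had between 0 and 33 reads in all libraries.

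The spread of a member within the genotypes did not follow its level alone. The SD of log2 CPM within genotypes was 0.14 for Elk3, smaller than for most genes at a mean CPM within 2-fold of its own, of which 12.0% had a smaller SD. For Elf1 it was 0.38, and 90.1% of the genes at a like level had a smaller SD.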
